A study of Mus musculus with 10 samples.

Results

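Open chromatin was examined at 10 genes of bone morphogenetic protein (BMP) and transforming growth factor beta (TGF-beta) signalling in blood vessels: the ligand gene Bmp6, the receptor genes Bmpr2, Acvrl1, Tgfbr2 and Eng, the inhibitory SMAD genes Smad6 and Smad7, and the target genes Id1, Id3 and Tmem100. Peaks were taken as members when they overlapped 1 of these genes or lay within 5000 bp of its ends, which gave 50 of the 37513 deposited peaks. Every member peak passed the filter of at least 10 reads over all libraries. Around Tmem100 and Smad6, all peaks of a wider window were viewed as well, 23 on chromosome 11 and 18 on chromosome 9, each over 250 kb (coordinates are those of mm10, as deposited). The genes and the windows were chosen with the differences between brain and lung in these libraries already known. Their levels in the 2 tissues are therefore a description without a test, and counts of calls between the tissues stand beside the share of all peaks called and support nothing. The comparison of capture sizes did not enter the choice and was tested.

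BMP and TGF-beta ligands bind pairs of type I and type II receptor kinases, which phosphorylate SMAD proteins that enter the nucleus and switch on target genes. In endothelium, the inner lining of vessels, Acvrl1 (ALK1) and Bmpr2 act with the co-receptor endoglin, the product of Eng, and inherited loss of these genes is known to cause vascular malformation or pulmonary hypertension. Smad6 and Smad7 are induced by the pathway and damp it, and Id1 and Id3 are classic BMP targets.

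The data came from ATAC-seq, in which the transposase Tn5 inserts adapters into open chromatin so that read density reports accessibility, on nuclei that were cut out by laser. The tissue was lung or brain of C57BL/6J wild types, cryosectioned after fresh freezing. A library pooled either 50 nuclei captured singly or 10 captured areas of about 20 nuclei, some 200 in all, so that capture mode always changed along with the count of nuclei. There were 3 lung libraries of each size and 2 brain libraries of each size. The labels call the repeats technical and name no animals, so the tests measure only the spread between these libraries. Levels are RPM, the reads of a peak scaled to 1000000 reads in nuclear peaks. The libraries held 319307 to 3075377 nuclear reads, so 1 read was worth 2.15 to 3.13 RPM in brain and 0.325 to 2.94 RPM in lung. Mitochondrial reads, which are outside this scale, made up 93.4 to 95.8% of reads in brain and 24.7 to 58.0% in lung. Lung 50-nuclei replicates 2 and 3 stood apart, with a read in 60.9% and 56.1% of nuclear peaks against 86.2 to 97.6% in the other 8 libraries. Of the 50 member peaks, 42 and 41 had a read in those 2 libraries and 41 to 50 in the others.

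Member chromatin was more open in lung than in brain at every gene in the mean over libraries, but not at every peak. Summed over the 50 peaks, lung libraries held 2208 ± 235 RPM (SD, n = 6), while those of brain held 954 ± 94.3 RPM (SD, n = 4). Of the 50 peaks, 39 had a lower fitted level in brain, and the median log2 fold (brain over lung) was -1.38, against 0.07 over the 37466 peaks tested. With edgeR's quasi-likelihood test at an adjusted p of 0.05, 17 of the 50 were called higher in lung (34.0%), where 4.39% of all peaks were, and 0 were called higher in brain, where 5.76% were (10.2% in either direction). At an unadjusted p of 0.05 there were 25 higher in lung and 0 higher in brain, where all peaks had 11.4% and 13.8%. In 19 of the 50 peaks every lung library lay above every brain library, as in 4.94% of all peaks, and in 0 the reverse, as in 8.4%. Leaving out 1 library lowered the 17 calls to 11 without lung 200-nuclei replicate 2 or brain 50-nuclei replicate 1, to 10 without lung 200-nuclei replicate 3 or brain 50-nuclei replicate 2, and to 9 without brain 200-nuclei replicate 1. Without both lung 50-nuclei replicates 2 and 3 there were 25.

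**Figure D1:**
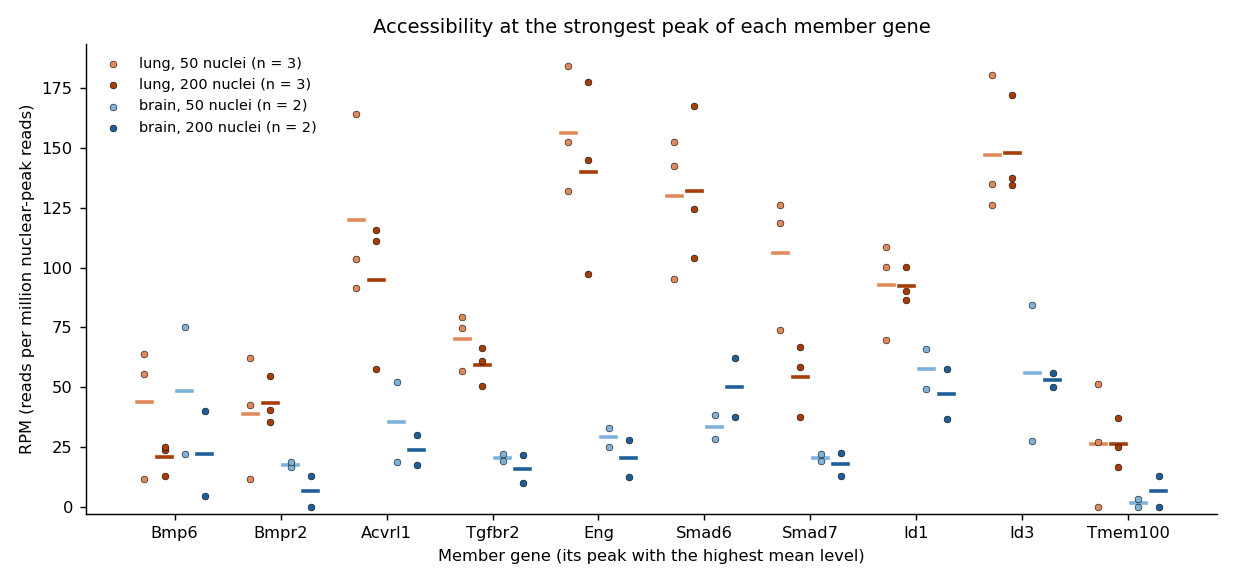
Accessibility in RPM (vertical axis) at the peak with the highest mean level of each member gene (horizontal axis). Points are libraries, coloured by tissue and capture size, and bars are group means; at Eng, Tgfbr2, Acvrl1, Smad6, Smad7, Id1 and Id3 every lung point lies above every brain point, while the groups overlap at Bmp6, Bmpr2 and Tmem100.

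**Figure D2:**
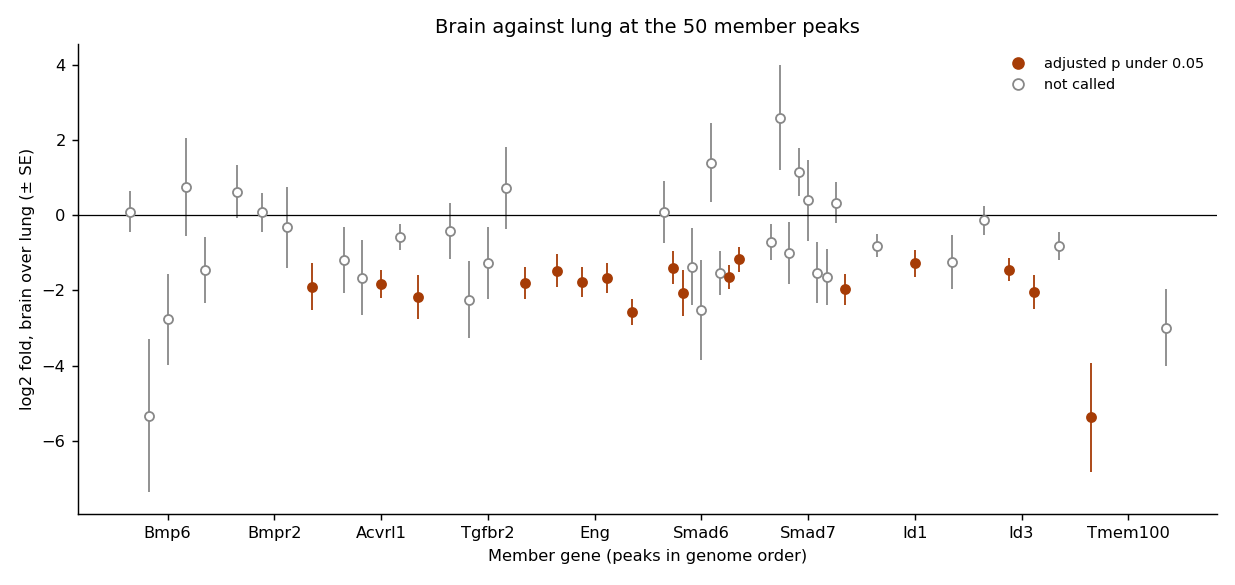
Log2 fold of brain over lung (vertical axis, ± SE from the model) at the 50 member peaks, grouped by gene and in genome order within it. Filled points are the 17 called peaks, all below 0; all 4 Eng peaks are among them, and the Bmp6 peaks include none.

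Called peaks covered an annotated end of Eng, Tgfbr2, Smad6, Id3 and Id1. For the first 4 of these genes that end is the start in the RefSeq promoter table, and the 250 bases before it are shown because the peaks cover all or part of them. RefSeq sequences (GRCm38.p6, the assembly of mm10) were at hand for 6 of the 10 members, Bmp6, Bmpr2, Tgfbr2, Eng, Smad6 and Id3, and the windows of Bmp6 and Bmpr2 held no peak. Capitals mark CAGAC (a core of SMAD sites), GGCGCC (the GC-rich element of BMP-activated SMADs) and AGGAAG (a core of ETS sites), each searched on both strands, and no 2 matches overlapped. The sequences run 5′ to 3′ on the strand of the gene.
Eng: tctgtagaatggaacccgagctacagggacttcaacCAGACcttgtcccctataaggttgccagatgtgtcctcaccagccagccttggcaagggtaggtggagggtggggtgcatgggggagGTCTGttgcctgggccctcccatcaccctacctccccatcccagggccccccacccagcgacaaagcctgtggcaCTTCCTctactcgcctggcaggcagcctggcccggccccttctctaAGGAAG
Tgfbr2: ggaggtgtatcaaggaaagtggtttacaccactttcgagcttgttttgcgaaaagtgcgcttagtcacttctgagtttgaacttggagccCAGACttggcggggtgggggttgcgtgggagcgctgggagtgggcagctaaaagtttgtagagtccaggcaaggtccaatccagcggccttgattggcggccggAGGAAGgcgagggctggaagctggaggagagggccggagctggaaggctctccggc
Smad6: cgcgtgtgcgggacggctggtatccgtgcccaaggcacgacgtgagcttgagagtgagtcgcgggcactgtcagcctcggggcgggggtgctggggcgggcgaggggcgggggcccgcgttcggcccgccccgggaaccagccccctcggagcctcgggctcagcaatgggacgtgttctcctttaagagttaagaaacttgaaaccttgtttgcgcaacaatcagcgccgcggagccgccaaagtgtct
Id3: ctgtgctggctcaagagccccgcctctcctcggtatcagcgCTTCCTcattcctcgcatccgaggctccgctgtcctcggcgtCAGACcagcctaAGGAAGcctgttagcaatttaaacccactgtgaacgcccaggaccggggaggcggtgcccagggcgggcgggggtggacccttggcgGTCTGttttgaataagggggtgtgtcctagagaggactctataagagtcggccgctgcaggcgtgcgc
The Eng window is chr2:32646345-32646594 on the plus strand, with 215 of its 250 bases in the peak, and the Id3 window is chr4:136143572-136143821 on the plus strand, also with 215. Smad6 lies on the minus strand, and its window, chr9:64022060-64022309, is wholly inside the peak. For Tgfbr2, on the minus strand, 72 bases of chr9:116175364-116175613 are in the peak, those next to the start.

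Among these windows, Eng and Id3 each held 2 matches to CAGAC and 2 to AGGAAG, Tgfbr2 held 1 of each, and Smad6 held neither. The CAGAC of Tgfbr2 begins 160 bases before the start, outside the called peak. Among 32851 promoters of the same table, 42.2% of windows of this length held CAGAC and 29.5% AGGAAG. None of the 4 held GGCGCC, which 9.59% of all windows did; the Bmpr2 window, which had no peak, held 1. CpG dinucleotides numbered 4 at Eng, 12 at Tgfbr2, 18 at Id3 and 27 at Smad6, against a median of 6 over all windows. A match is a description of letters and not a bound site.

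All 4 peaks of Eng stood higher in lung, with every lung library above every brain library. Eng encodes endoglin and spans chr2:32646595-32682669. Its strongest peak, chr2:32661489-32662138 inside the gene, held 132, 153 and 184 RPM in lung at 50 nuclei, 97.5, 145 and 178 RPM in lung at 200 nuclei, 32.8 and 25.1 RPM in brain at 50 nuclei and 12.5 and 27.9 RPM in brain at 200 nuclei. The lung libraries all lay far above those of brain, and the log2 fold was -2.57 ± 0.33 (SE). The peak at the gene start, chr2:32646380-32646702, held 78.2, 38.2 and 126 RPM in lung at 50 nuclei, 37.7, 76.9 and 70.2 RPM in lung at 200 nuclei, 13.7 and 37.6 RPM in brain at 50 nuclei and 15.0 and 34.4 RPM in brain at 200 nuclei. There the groups were close, as lung 200-nuclei replicate 1 and lung 50-nuclei replicate 2 were only just above the 2 highest brain libraries, and the log2 fold was -1.47 ± 0.44 (SE). The other 2 Eng peaks lay inside the gene and were called as well, with log2 folds of -1.78 ± 0.40 (SE) and -1.67 ± 0.41 (SE). Each of these 2 calls was lost in 1 of the 10 fits that left out 1 library. The call at the gene start was lost in 5 of them and with the replicate numbers as a block. Summed over its 4 peaks, Eng held 385 ± 79.7 RPM in lung (SD, n = 6). Brain held 99.7 ± 11.8 RPM (SD, n = 4), which gives a ratio of 3.87.

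Acvrl1, the type I receptor that pairs with endoglin, showed the same order of tissues inside and behind the gene. Its strongest peak, chr15:101134094-101134685 in the gene body, held 104, 164 and 91.3 RPM in lung at 50 nuclei, 57.6, 116 and 111 RPM in lung at 200 nuclei, 52.0 and 18.8 RPM in brain at 50 nuclei and 17.6 and 30.1 RPM in brain at 200 nuclei. Every lung library lay above every brain library, though lung 200-nuclei replicate 1 and brain 50-nuclei replicate 1 nearly met, and the log2 fold was -1.83 ± 0.37 (SE). A peak beyond the higher-coordinate end, chr15:101147973-101148244, was also called, at -2.18 ± 0.58 (SE), a call lost in 3 of the 10 fits that left out 1 library. The gene-end peak between them, chr15:101145518-101145800, held 91.0, 47.0 and 63.9 RPM in lung at 50 nuclei, 92.0, 104 and 76.7 RPM in lung at 200 nuclei, 46.5 and 65.8 RPM in brain at 50 nuclei and 40.1 and 58.0 RPM in brain at 200 nuclei. The groups overlapped there, since lung 50-nuclei replicates 2 and 3 lay within the range of brain, and the log2 fold of -0.58 ± 0.34 (SE) was not called.

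Both type II receptors were represented by 1 called peak each. Tgfbr2, which binds TGF-beta itself, had its strongest peak over the gene start, chr9:116175111-116175435, with 56.9, 79.2 and 74.8 RPM in lung at 50 nuclei, 66.5, 50.5 and 61.1 RPM in lung at 200 nuclei, 19.2 and 21.9 RPM in brain at 50 nuclei and 10.0 and 21.5 RPM in brain at 200 nuclei. Lung and brain libraries did not overlap, and the log2 fold was -1.80 ± 0.44 (SE). Its 4 peaks inside the gene reached 6.29 to 18.5 RPM in the mean over lung and 3.62 to 13.2 RPM over brain and were not called. Bmpr2, the type II receptor of BMPs, had a peak deep in the gene, chr1:59833775-59834044, with 42.7, 11.7 and 62.1 RPM in lung at 50 nuclei, 54.9, 40.3 and 35.4 RPM in lung at 200 nuclei, 16.4 and 18.8 RPM in brain at 50 nuclei and 0 and 12.9 RPM in brain at 200 nuclei. That peak was called, with a log2 fold of -1.90 ± 0.63 (SE), although lung 50-nuclei replicate 2 lay within the range of brain. The call was lost in 7 of the 10 fits that left out 1 library, all but those without lung 50-nuclei replicate 2 or 3 or brain 200-nuclei replicate 2, and in 3 other settings, and apart from scaling by library totals the log2 fold ran from -4.77 to -1.43. Near the start of Bmpr2 the tissues were alike in range: chr1:59763440-59763691 held 27.0, 5.87 and 21.9 RPM in lung at 50 nuclei, 36.0, 39.5 and 43.2 RPM in lung at 200 nuclei, 16.4 and 37.6 RPM in brain at 50 nuclei and 40.1 and 23.6 RPM in brain at 200 nuclei, and the log2 fold was 0.08 ± 0.52 (SE).

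Bmp6, the only ligand among the members, had 5 peaks and 0 calls in either direction. The peak before its start, chr13:38344973-38345161, held 55.4, 11.7 and 63.9 RPM in lung at 50 nuclei, 23.8, 24.9 and 13.0 RPM in lung at 200 nuclei, 21.9 and 75.2 RPM in brain at 50 nuclei and 40.1 and 4.30 RPM in brain at 200 nuclei. High and low libraries occurred in both tissues, and the log2 fold was 0.10 ± 0.56 (SE). Inside the gene, chr13:38353559-38353670 held 33 reads over the lung libraries and 0 over those of brain, at least 2.17-fold higher in lung per nuclear read with 3 reads over the brain group as the floor. This bound and the limits of other low counts cover counting error only.

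Inhibitory SMAD genes had the most member peaks, 9 each. Smad6, which mainly opposes BMP receptors, had 4 called peaks and Smad7, which acts on both BMP and TGF-beta receptors, had 1, a difference that was not tested. Without lung 200-nuclei replicate 2 or 3, brain 50-nuclei replicate 2 or brain 200-nuclei replicate 1, and with the replicate numbers as a block, Smad6 was left with 1 call. The strongest Smad6 peak covered its start, chr9:64021911-64022334, and held 95.3, 153 and 142 RPM in lung at 50 nuclei, 104, 124 and 168 RPM in lung at 200 nuclei, 38.3 and 28.2 RPM in brain at 50 nuclei and 37.6 and 62.3 RPM in brain at 200 nuclei. No lung library fell to the level of brain, with a log2 fold of -1.65 ± 0.31 (SE). A neighbour just upstream, chr9:64022862-64023281, had -1.17 ± 0.34 (SE), and 2 peaks inside the gene, chr9:63968624-63968923 and chr9:63970533-63970751, had -1.39 ± 0.44 (SE) and -2.06 ± 0.61 (SE). The called Smad7 peak, chr18:75387383-75387660 in the gene body, held 73.9, 126 and 119 RPM in lung at 50 nuclei, 37.7, 58.6 and 66.7 RPM in lung at 200 nuclei, 19.2 and 21.9 RPM in brain at 50 nuclei and 22.6 and 12.9 RPM in brain at 200 nuclei. All 3 lung libraries of 50 nuclei lay above all 3 of 200 nuclei, though that difference did not pass the test (log2 fold of 200 over 50 nuclei -0.71 ± 0.43 (SE), edgeR adjusted p = 0.705). The lowest lung library still exceeded the highest of brain, and the log2 fold of brain over lung was -1.97 ± 0.41 (SE). At the gene end of Smad7 the strongest peak, chr18:75366545-75366850, overlapped between tissues with 58.3, 52.8 and 21.9 RPM in lung at 50 nuclei, 41.6, 53.4 and 36.7 RPM in lung at 200 nuclei, 27.4 and 15.7 RPM in brain at 50 nuclei and 22.6 and 43.0 RPM in brain at 200 nuclei (log2 fold -0.72 ± 0.47 (SE)).

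Of the targets, Id3 and Id1 were open in both tissues. Id3 encodes an inhibitor of helix-loop-helix transcription factors, and the peak over its start, chr4:136143607-136143908, held 181, 126 and 135 RPM in lung at 50 nuclei, 137, 135 and 172 RPM in lung at 200 nuclei, 27.4 and 84.6 RPM in brain at 50 nuclei and 50.1 and 55.9 RPM in brain at 200 nuclei. Brain 50-nuclei replicate 2 was the highest brain library and still lay below all of lung, and the log2 fold was -1.45 ± 0.31 (SE). A second called peak, chr4:136144655-136144911, had a log2 fold of -2.04 ± 0.45 (SE), while the flank peak chr4:136140367-136140608 had a lung mean of 56.2 ± 20.5 RPM (SD, n = 6) and a brain mean of 51.8 ± 25.7 RPM (SD, n = 4) with a log2 fold of -0.14 ± 0.40 (SE). Id1, a relative of Id3, had 92.4, 70.4 and 56.6 RPM in lung at 50 nuclei, 88.1, 84.2 and 111 RPM in lung at 200 nuclei, 43.8 and 34.4 RPM in brain at 50 nuclei and 27.6 and 32.2 RPM in brain at 200 nuclei at the peak over a gene end, chr2:152736068-152736387. Lung was higher throughout, and the log2 fold of -1.28 ± 0.35 (SE) was called. Id1 lost this call in 5 of the 10 fits that left out 1 library. At its strongest peak, chr2:152735027-152735335, the log2 fold of -0.81 ± 0.31 (SE) was not called although every lung library exceeded every brain library, the closest pair being 69.7 and 65.8 RPM.

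Tmem100, a membrane protein gene induced by Acvrl1 signalling in endothelium, had few reads in brain at the gene itself. Its gene-end peak, chr11:90029501-90029656, held 27.0, 0 and 51.1 RPM in lung at 50 nuclei, 16.6, 24.9 and 37.1 RPM in lung at 200 nuclei, 0 and 3.13 RPM in brain at 50 nuclei and 0 and 12.9 RPM in brain at 200 nuclei. The groups overlapped only through lung 50-nuclei replicate 2, which was at 0, and the log2 fold of -2.99 ± 1.02 (SE) was not called. The flank peak chr11:90025982-90026136 was called and had 132 reads over lung and 1 over brain, a ratio per nuclear read of 26.1 (exact 95% counting interval 4.60 to 1038). That call was lost in 4 of the 10 fits that left out 1 library.

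A dense row of lung-high peaks lay beyond the higher-coordinate end of Tmem100, in a stretch without coding genes. Of the 23 peaks in the window, 19 had no coding gene in reach, and these lay 7.82 to 189 kb from that end. They summed to 459.9 to 931 RPM in lung and 103 to 131 RPM in brain, where the sums rest on 35 to 48 reads a library. In this row 8 of the 19 were called higher in lung (4.39% of all peaks were) and 0 in brain (5.76%), 10 had every lung library above every brain library (4.94%), and the median log2 fold was -2.47. The strongest, chr11:90116734-90117502 (80.6 kb from the gene), held 108, 211 and 74.8 RPM in lung at 50 nuclei, 63.2, 163 and 171 RPM in lung at 200 nuclei, 19.2 and 9.40 RPM in brain at 50 nuclei and 12.5 and 19.3 RPM in brain at 200 nuclei, with a log2 fold of -3.07 ± 0.41 (SE). The next, chr11:90130039-90130464, had a lung mean of 93.5 ± 28.6 RPM (SD, n = 6) and a brain mean of 7.86 ± 3.70 RPM (SD, n = 4) (log2 fold -3.56 ± 0.47 (SE)). In RPM these levels exceeded those of both peaks at the gene, whose lung means were 20.1 and 26.1 RPM. The 2 distal peaks were also wider, 768 and 425 bp against 154 and 155 bp at the gene, and these levels are not per kb. At the far edge of the window the peak at an end of Mmd, chr11:90249126-90249665, was alike in range in the tissues, with a lung mean of 118 ± 32.9 RPM (SD, n = 6) and a brain mean of 115 ± 15.5 RPM (SD, n = 4) (log2 fold -0.06 ± 0.28 (SE)). The peak at an end of Pctp, on the other side, had a lung mean of 27.2 ± 15.6 RPM (SD, n = 6) and a brain mean of 11.7 ± 3.27 RPM (SD, n = 4). Its log2 fold of -1.23 ± 0.72 (SE) was not called.

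Smad6 had a similar row upstream of its start. There 12 peaks without a coding gene in reach lay 8.40 to 78.6 kb from the start. They summed to 460.5 to 789 RPM in lung and 135 to 222 RPM in brain, where the sums rest on 43 to 81 reads a library. Of these 12, 6 were called higher in lung and 0 in brain, where all peaks had 4.39% and 5.76%, 4 had all lung above all brain libraries (4.94%), and the median log2 fold was -1.67. The strongest, chr9:64094034-64094584, held 109, 91.0 and 214 RPM in lung at 50 nuclei, 72.6, 111 and 105 RPM in lung at 200 nuclei, 21.9 and 18.8 RPM in brain at 50 nuclei and 30.1 and 15.0 RPM in brain at 200 nuclei, with a log2 fold of -2.41 ± 0.37 (SE). Its neighbour chr9:64088877-64089397 had a lung mean of 113 ± 31.3 RPM (SD, n = 6) and a brain mean of 26.0 ± 2.84 RPM (SD, n = 4) (log2 fold -2.10 ± 0.35 (SE)). At the other end of the window, the 3 peaks at ends of Zwilch, Rpl4 and Snapc5 had higher means in brain, with log2 folds of 2.15 ± 0.93 (SE), 1.20 ± 0.80 (SE) and 0.69 ± 0.38 (SE), and none was called. Which gene any of the distal peaks acts on was not measured. The windows were chosen for these rows, so no share of calls in them is compared with other windows.

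**Figure D3:**
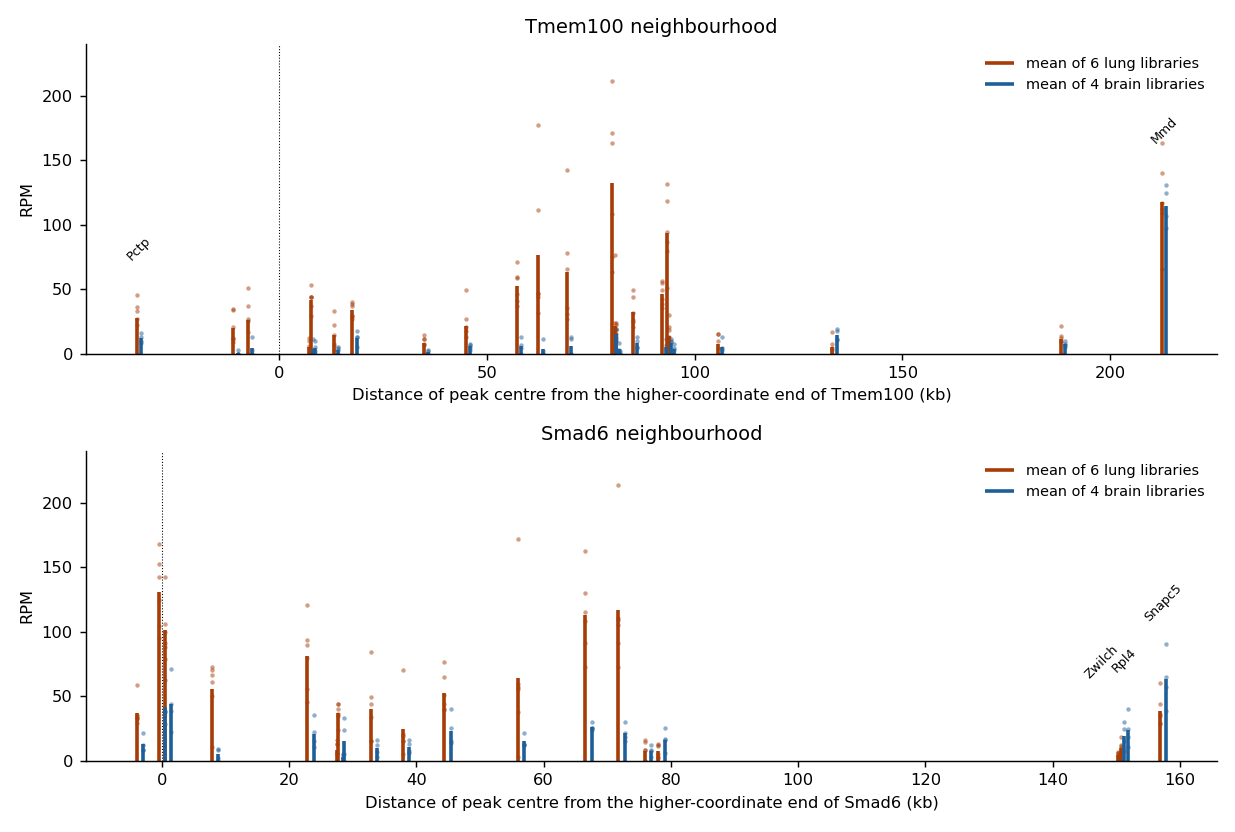
Accessibility in RPM (vertical axis) against the distance in kb of each peak's centre from the higher-coordinate end of Tmem100 (top, 23 peaks) and of Smad6 (bottom, 18 peaks; this end is its start), marked by a dotted line. Lines are means of the 6 lung and 4 brain libraries, dots single libraries, with lung drawn slightly to the left and brain slightly to the right of the true position; the lung mean is above that of brain at 18 of the 19 distal peaks near Tmem100 and at 10 of the 12 near Smad6, the lines nearly meet at Mmd, and brain is higher at Zwilch, Rpl4 and Snapc5.

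The limit of 5000 bp left peaks on either side. Just inside it were the Id1 peak at 4305 bp (26.6 RPM in lung and 11.6 RPM in brain, means) and the Tmem100 flank peak at 4212 bp. Just outside were a peak 5044 bp from Acvrl1, assigned to Ankrd33 (21.6 and 9.88 RPM), and one 5747 bp from Bmpr2 (10.9 and 5.57 RPM).

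Levels were compared between genes per kb of peak. In lung, Id3 was highest at 311 ± 41.8 RPM per kb (SD, n = 6), followed by Id1 at 245 ± 21.2, a difference above either SD. Eng (203 ± 42.0), Smad6 (199.5 ± 29.8) and Acvrl1 (190.4 ± 22.4) came next and differed from each other by less than their SDs. Smad7 (153 ± 22.2), Tmem100 (149.7 ± 77.6), Bmpr2 (133 ± 16.6) and Tgfbr2 (122 ± 18.3) followed, each within 1 SD of its neighbour, and Bmp6 was lowest at 88.5 ± 31.8. Brain kept Id3 (147 ± 46.2 RPM per kb, SD, n = 4) and Id1 (119 ± 9.89) at the top, but Bmpr2 came next at 103 ± 9.32 and Tmem100 was last at 15.5 ± 19.9. The ratio of summed levels, lung over brain, ran from 1.29 at Bmpr2 and 1.63 at Bmp6 to 3.87 at Eng and 9.66 at Tmem100, where brain held 0 to 6 reads a library. All brain sums rest on few reads, from 0 a library at Tmem100, 8 at Bmp6, 12 at Tgfbr2, 27 at Bmpr2, 28 at Acvrl1 and 30 at Eng to at least 33 at the other 4 genes.

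Member peaks were wider and stronger in the median than nuclear peaks as a whole. Their median width was 219 bp, against 164 bp over nuclear peaks, and their median level over the 10 libraries was 25.3 RPM against 13.1 RPM. Among the 17 called peaks the median was 319 bp and 55.8 RPM, among the other 33 members 169 bp and 16.4 RPM, and over all 1645 peaks called higher in lung 312 bp and 34.2 RPM. By position, 7 of the 19 gene-end peaks, 8 of the 24 gene-body peaks and 2 of the 7 flank peaks were called higher in lung, against 4.39% of all peaks. Shares called among all peaks of each class were not computed, so the split by position is not compared with theirs. The part of width and level in the calls was not tested.

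Markers of endothelium moved with the members. All 12 marker genes of the endothelial list had a peak, 20 of their 51 peaks were called higher in lung (39.2%, against 4.39% of all peaks) and 0 in brain (against 5.76%), and none of the 12 was at 0 in either tissue. Their summed level was 1395 to 2022 RPM in the lung libraries and 421 to 632 RPM in those of brain. Divided by this sum, the summed level of the members was 1.14 to 1.47 in lung and 1.38 to 2.41 in brain. In pooled nuclei, fewer endothelial nuclei and less open chromatin per nucleus cannot be told apart. The part of endothelial content in the member values was not tested.

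The other lists placed the libraries by tissue at neurons but less clearly elsewhere. Neuronal markers, all 7 with a peak, summed to 21.9 to 99.8 RPM in lung and 269 to 361 RPM in brain, with 8 of 13 peaks called higher in brain, as 5.76% of all peaks were. Markers of astrocytes and oligodendrocytes summed to 153 to 254 RPM in lung and 258 to 382 RPM in brain, with 3 of 14 peaks called higher in brain against the same 5.76%. Mural and smooth muscle markers, cells that also answer to TGF-beta, summed to 65.4 to 146 RPM in lung and 109.6 to 193 RPM in brain over 9 peaks, none of them called. Fibroblast and lung mesenchyme markers (4 peaks), lung epithelium (11 peaks) and immune markers (10 peaks) had 0 calls, and lung epithelium summed to 58.4 to 162 RPM in lung and 56.4 to 112 RPM in brain. No peak was assigned to the defining lung epithelial markers Sftpc and Epcam, or to Acta2, Tagln and Rgs5 of the mural and smooth muscle list. The same held for Pdgfra, Col1a2 and Dcn of fibroblasts, Cd3e of immune cells, and Aqp4, Aldh1l1 and Olig2 of astrocytes and oligodendrocytes. Sums of these lists rest on the remaining genes. No list had a gene with peaks that was at 0 throughout a tissue.

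Other genes of the pathway were called in both directions. A list of 48 further genes had 125 tested peaks at 40 genes; 2 were called higher in lung (1.6%, against 4.39% of all peaks) and 4 higher in brain (3.2%, against 5.76%), and the median log2 fold was -0.03, against 0.07 over all peaks. The list was written with earlier results of these libraries known. The 2 lung peaks were in Ski, a repressor of SMAD activity (chr4:155164549-155164955, a lung mean of 95.6 ± 27.8 RPM (SD, n = 6) and a brain mean of 23.3 ± 9.47 RPM (SD, n = 4), log2 fold -2.05 ± 0.38 (SE)), and in Ltbp4, a binding protein of latent TGF-beta (chr7:27330888-27331417, log2 fold -1.05 ± 0.33 (SE)). Of those of brain, 3 were at Smad9, a BMP-activated SMAD (log2 fold 4.88 ± 1.29 (SE)), Bmpr1b, a type I receptor (3.34 ± 1.05 (SE)), and Inhba, an activin subunit (3.95 ± 1.17 (SE)). They rest on few reads, 22 over brain and 8 over lung at Smad9, 29 and 30 at Bmpr1b, and 23 and 5 at Inhba. At Inhba, 16 of the brain reads were in brain 200-nuclei replicate 1, and the tissues overlapped. By role, the median was 0.76 over 13 ligand peaks, -0.32 over 27 of extracellular modulators, 0.13 over 30 of other receptors, -0.43 over 40 of SMADs and their regulators and 0.65 over 15 of other targets. No peak was assigned to Gdf2 or Bmp10, the ligands of Acvrl1, nor to Bmp2.

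**Figure D4:**
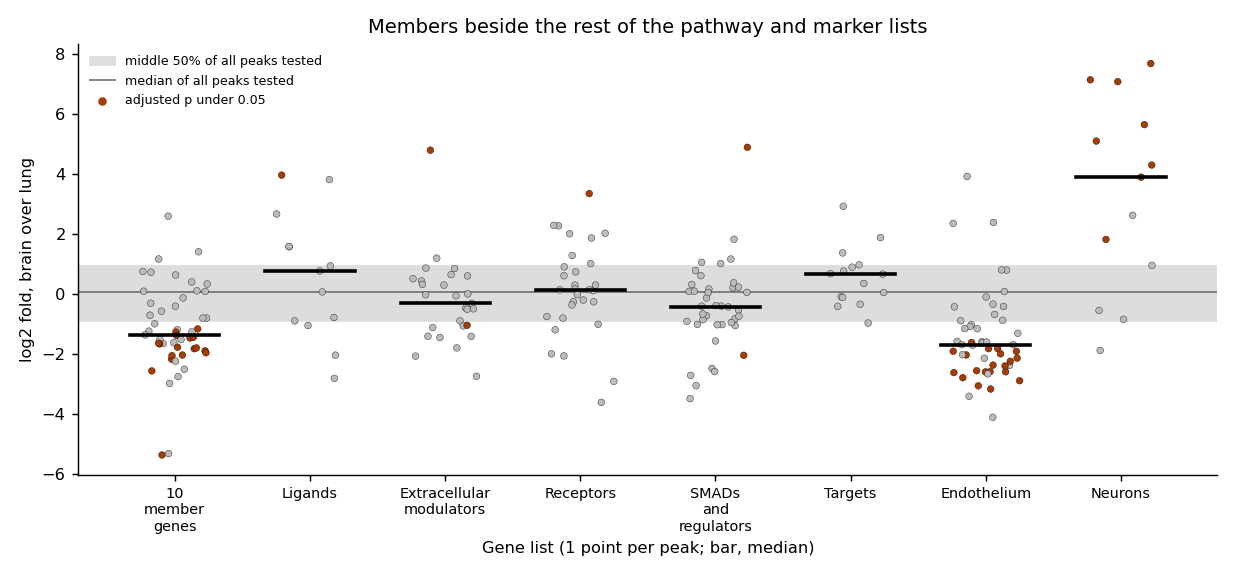
Log2 fold of brain over lung (vertical axis) for every tested peak of the 10 member genes, of the other pathway genes by role, and of endothelial and neuronal markers (horizontal axis). Points are peaks, red where called, black bars are medians and the grey band holds the middle 50% of all peaks tested. The members' bar is at -1.38, near that of endothelium at -1.71, and the bars of the other pathway groups lie between -0.43 and 0.76. Marker lists not drawn had medians of 1.53 (mural and smooth muscle), 0.77 (astrocytes and oligodendrocytes), -0.20 (immune), -0.24 (fibroblast and lung mesenchyme) and -0.75 (lung epithelium).

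Across the 10 libraries, the 5 genes with profiles nearest to the members were on none of the pathway lists. The profile of the members was the median of their summed log2(RPM + 1), centred over libraries. Among 9844 other coding genes with at least 20 RPM, the smallest root mean square differences from it were those of Lmna (0.138), Dlc1 (0.140), Plec (0.144), Dhrs3 (0.147) and Nkd1 (0.160 log2 units), against a median of 0.900. Lmna, which encodes lamins A and C, held 422 RPM in lung and 183 RPM in brain in the mean. Of the members, Id1 lay nearest to their shared profile (0.146) and Tmem100 farthest (1.68). The likeness is a description over 10 libraries of 2 tissues.

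Capture size was the comparison in which the members could be tested. The libraries of 200 nuclei taken as areas were set against those of 50 single nuclei. No member peak passed the threshold for 200 against 50 nuclei in lung, in brain or averaged over tissues, and none passed for the interaction of tissue and size (edgeR quasi-likelihood tests, lowest adjusted p 0.487 in lung, 1.0 in brain, 0.99997 averaged and 0.99996 for the interaction). The same tests called 0.0% of all 37466 peaks in each of these 4 comparisons. At an unadjusted p of 0.05 the members had 4 peaks in lung, all higher at 200 nuclei, 0 in brain, 2 averaged over tissues and 1 for the interaction, a negative one, where all peaks had 7.14%, 1.14%, 2.77% and 3.73% in the same direction (both directions in brain). DESeq2 called 0 member peaks in each, and 3, 0, 0 and 0 of all peaks. The median log2 fold of 200 over 50 nuclei was 0.09 in lung and -0.03 in brain, where all peaks had 0.33 and -0.07. The median SE of a member peak was 0.74 in lung and 1.03 in brain, so small changes at single peaks were not detectable at this depth. Large ones could be missed as well, as a log2 fold of 2.96 in lung, at a Smad7 peak, did not pass.

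The lowest p for size belonged to Smad7. Its peak over the lower-coordinate end of the gene, chr18:75367298-75367526, held 9.95, 2.94 and 0 RPM in lung at 50 nuclei, 27.2, 42.5 and 31.2 RPM in lung at 200 nuclei, 16.4 and 28.2 RPM in brain at 50 nuclei and 40.1 and 34.4 RPM in brain at 200 nuclei. Lung at 50 nuclei was low in all 3 libraries, while lung at 200 nuclei and most of brain were alike in range; the log2 fold of 200 over 50 nuclei in lung was 2.96 ± 0.86 (SE, edgeR adjusted p = 0.487). Averaged over tissues it was 1.85 ± 0.65 (SE). Without lung 50-nuclei replicate 1 it passed the threshold (log2 fold 4.98, edgeR adjusted p = 0.0446), where only the 2 libraries that reached the fewest peaks were left at 50 nuclei and 252 of all peaks were called. Over all alternatives the adjusted p ran from 0.0446 to 0.870. Peak chr18:75378675-75378928 in the gene body held 7.11, 17.6 and 7.30 RPM in lung at 50 nuclei, 36.6, 59.3 and 38.0 RPM in lung at 200 nuclei, 43.8 and 37.6 RPM in brain at 50 nuclei and 7.52 and 25.8 RPM in brain at 200 nuclei. It was lowest in lung at 50 nuclei and 1 brain library of 200 nuclei, and it had the lowest p of the members for the interaction, with a difference of tissue folds (200 minus 50 nuclei) of -3.60 ± 1.11 (SE, edgeR adjusted p = 0.99996), and for size in brain, with a log2 fold of -1.24 ± 0.85 (SE). These peaks are 2 of the 4 members with an unadjusted p under 0.05 in lung. In lung, 6 of the 50 member peaks had every 200-nuclei library above every 50-nuclei library (12.0%, as in 12.0% of all peaks) and 1 the reverse (2.0%, against 3.18%).

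**Figure D5:**
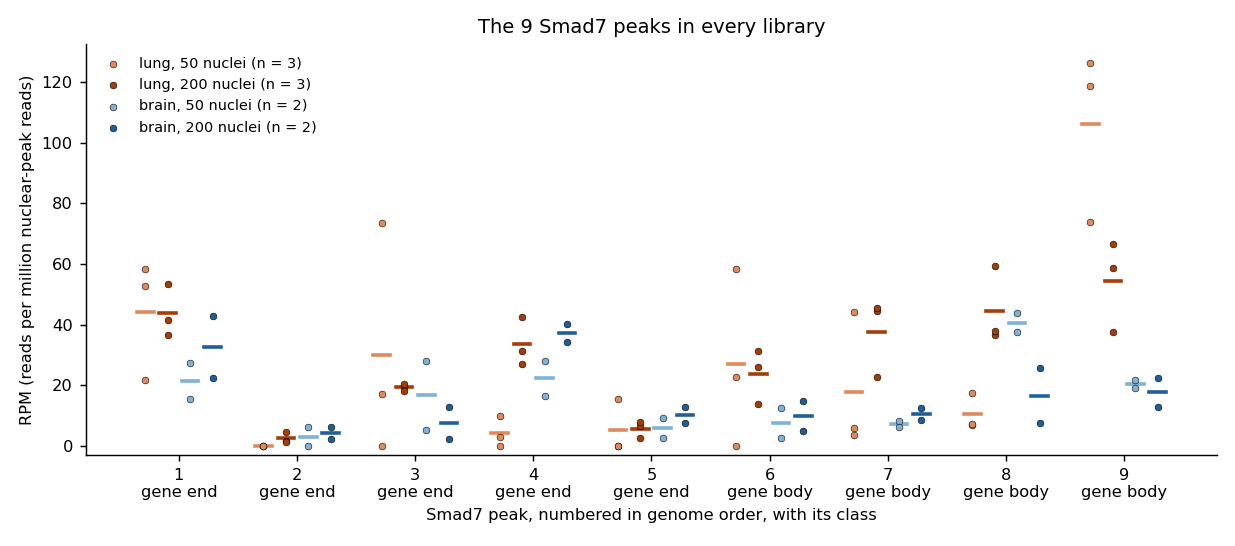
Accessibility in RPM (vertical axis) at the 9 Smad7 peaks in genome order (horizontal axis, with the class of each). Points are libraries and bars group means; at peak 4 the lung libraries of 50 nuclei lie below all other libraries, and at peak 9 all lung libraries lie above brain.

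Member peaks varied least between replicates in lung at 200 nuclei. The median coefficient of variation of a member peak was 28.3% there (n = 3) and 54.4% in lung at 50 nuclei (n = 3), and 38.5% and 56.0% in brain at 50 and 200 nuclei (n = 2 each). Over all peaks tested it was 34.0%, 94.6%, 38.5% and 38.6% in the same order. Lung at 200 nuclei was also deepest, but depth did not rank the other groups in the same order. Over member peaks and libraries the median was 57 reads in lung at 200 nuclei and 16 in lung at 50 nuclei. In brain it was 5 and 6 at 50 and 200 nuclei. At least 1 library without a read occurred at 2 member peaks in lung at 200 nuclei, at 13 in lung at 50 nuclei, and at 8 and 10 in brain at 50 and 200 nuclei.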

How the data were processed

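Chromatin accessibility was measured in 10 libraries, 6 of lung and 4 of brain. The values are raw counts per peak and library, in a table that the authors deposited. The submitters' processing notes name mm10 as the build, and MACS2 2.2.7.1, Bowtie2 2.4.5, Trimmomatic 0.36, Picard, SAMtools, bcl2fastq 2.20, deepTools 3.1.3 and R 4.1.0 as tools, without saying what each did. How peaks were merged, duplicates treated and Tn5 cuts shifted was not stated in the sources at hand, and each bears on the counts.

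A peak was assigned to a coding gene (RefSeq GRCm38.p6) by overlap or by a gap of at most 5000 bp, and where several qualified, to the one whose end was nearest its centre. Centres within 1000 bp of an end made a gene-end peak. Counts were tested with edgeR 4.0.16 (R 4.3.3), TMM, peaks with at least 10 reads, 1 mean for each of the 4 groups, and Benjamini-Hochberg adjustment over 37466 peaks at 0.05; SEs were taken from the fold and the F value. The fit kept mitochondrial peaks, which the RPM levels leave out. A fit of nuclear peaks only shared 15 of the 17 member calls. Code was tested on simulated data. Named were the strongest peak and the strongest gene-end peak of each member, the member peak with the lowest p for each size test, and the 3 strongest of each window; other peaks were named after their values were seen. Members, lists and tests were chosen with earlier results of these data known. Of the peaks called in the wider pathway list, 1 is not reported here. Alternatives were other scalings, filters and windows, DESeq2 1.42.0, a replicate block and leaving out libraries.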

Additional observations from a re-analysis of the deposited data

Results flagged for a closer look

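In the row of distal peaks upstream of Smad6, the peak chr9:64094034-64094584 held 214 RPM in lung 50-nuclei replicate 3, far above the other 5 lung libraries, which held 72.6 to 111 RPM. It was the only value that stood apart by Dixon's test among 44 sets of libraries examined, 22 named peaks in 2 tissues, where chance gives about 1 in 20. Without that library the log2 fold of brain over lung was -2.22 in place of -2.41, and the peak was still called.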

How the results depend on the processing

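Calls between the tissues at member peaks kept their direction under every alternative with all 10 libraries. Their number ranged from 12 to 19 of 50, except under scaling by library totals. That scaling takes mitochondrial reads in full, without TMM, shifted the all-peak median (log2) from 0.07 to -3.34 and called 47 members. Leaving out 1 library gave 9 to 22 calls; without lung 50-nuclei replicate 1, 1 of 16 was higher in brain, at Smad7. Calls at Eng (chr2:32661489-32662138), Smad6 (chr9:64021911-64022334), Acvrl1 (chr15:101134094-101134685), Smad7 (chr18:75387383-75387660) and both Id3 peaks held in all of these. With gene overlap only there were 34 member peaks and 14 calls, and with 10000 bp 61 and 20, where 10.2% of all peaks were called in either direction. Over all peaks the 3803 calls became 30331 with library totals (252 higher in brain and 30079 in lung, against 2158 and 1645), 2033 with edgeR's default filter, 2042 with the replicate block and 8364 without lung 50-nuclei replicates 2 and 3 (added after seeing the data), and 1585 to 7023 without 1 library. To see whether replicate numbers pair libraries, deviations from the group mean, and not levels, were correlated. Same-numbered libraries of different groups had correlations of -0.03 to 0.02 over 13 pairs, and pairs with other numbers -0.03 to 0.03. With 2 brain libraries of each size, the deviations within a brain group mirror each other, so these values are not independent. At this depth they cannot settle whether the numbers pair libraries. With the replicate block 12 members were called between tissues and 0 for size.

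For 200 against 50 nuclei in lung, the 0 calls over all peaks became 2 with RLE factors, 3 with library totals, 3 with DESeq2, 2 with the replicate block, 15 without both lung libraries, and 0 to 252 without 1 library, the highest without lung 50-nuclei replicate 1; members had 0 to 1. Averaged over tissues they became 2 with library totals, 2 with the block and 8 without both lung libraries (0 without any 1 library), and for the interaction 2, 2, 2 and 3 with RLE factors, library totals, the block and without both lung libraries. In brain all gave 0. Folds near 0 that were not called changed sign. Bmp6 (0.10 before its start) was -3.29 with library totals, -0.14 without both lung libraries and -1.03 to 0.53 without 1 library; Bmpr2 (0.08 near its start) was -3.34, -0.25 and -0.28 to 0.43; the Smad7 peaks with the lowest p for size (1.16 and 0.33 between tissues) were -2.22 and -3.19 with library totals, and the latter -0.27 to 0.64 without 1 library; Mmd (-0.06) was 0.0465 with RLE factors, 0.0459 with DESeq2, 0.00492 with the default filter and -0.22 to 0.31 without 1 library. The cause of these changes was not tested. Brain depth, a median of 5 and 6 reads a member peak at 50 and 200 nuclei, limits all comparisons.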
